A study of Oryza sativa Japonica Group with 9 samples.

Results

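The loci described are those whose transcript stood, in every mutant library, below 0.5 of the lower wild-type value. They were chosen by their FPKM values in the wild-type and mutant libraries. A locus was taken when it carried a gene name, had an estimate marked OK in all 6 RNA libraries, reached at least 5 FPKM in both wild-type libraries, and had all 4 mutant values under 0.5 of the smaller wild-type value. FPKM is the number of fragments scaled by transcript length and by library size. Of 57567 loci in the expression tables, 55706 had a gene name and an OK estimate, and 14411 of these reached 5 FPKM in both wild-type libraries. The rule was met by 9 of the 14411, which is 0.0625%. One of them, LHY (LOC_Os08g06110), was left out by name, and 8 loci remain. LOC_Os04g38600 was also to be left out, and it did not meet the rule, with its highest mutant value at 50.4% of the smaller wild-type value. Because the wild-type and mutant values chose the loci, their fall from wild type to mutant is given as a description, with no test.

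The study asked, per its title, how the transcription factor WOX11 and a histone H3 lysine 27 demethylase act together in the growing rice shoot. WOX11 is a homeobox protein of the WUSCHEL-related family, known in rice for its role in crown root formation. JMJ705, a Jumonji family enzyme, takes methyl groups off histone H3 at lysine 27, where Polycomb complexes put them on silenced genes. Loss of such an enzyme can leave the mark on a gene and its transcript low, and a factor that brings the enzyme to chromatin can share target genes with it.

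The tissue was the shoot apex of 5-day-old seedlings of the rice cultivar Hwayoung, the tip of 2 to 3 mm that holds the meristem and youngest leaves. Seedlings grew on a medium with sucrose under 14 h of light and 10 h of dark. RNA was sequenced from wild type, wox11 mutants and jmj705 mutants, with 2 libraries for each genotype, which the study describes as biological repeats. The sources used here do not state the lesions of the mutants or how many apices made up a library. Binding of JMJ705 came from chromatin immunoprecipitation with an anti-FLAG antibody and sequencing (ChIP-seq). It used 1 library from a JMJ705 over-expressing line that is otherwise wild type and 1 from such a line carrying the wox11 mutation. The sources used here do not state which promoter drives the transgene. Summed FPKM over usable named loci ran from 700090 to 820527 per library, and total read depth is unknown. The error of a single value is given by the confidence bounds that the authors deposited with it.

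WOX11 transcript was 4.52 and 5.00 FPKM in wild type, 1.49 and 1.11 in wox11, and 4.57 and 7.56 in the libraries labelled jmj705. The wox11 libraries lay below all others (log2 change from wild type -1.33, SE 0.23, limma adjusted p = 0.0575). JMJ705 transcript was 7.41 and 6.73 FPKM in wild type and 13.7 and 12.5 in the libraries labelled jmj705, which goes against the label in direction (log2 change 0.81, SE 0.13, limma adjusted p = 0.0634). Every direction given for jmj705 therefore rests on its label. Marker genes were taken by locus names written from memory. The 3 meristem genes of the KNOX list, OSH1, OSH15 and OSH71, were present in all 6 libraries, and all 3 were lower in both wox11 libraries than in both wild-type libraries. OSH1 stood at 53.1 and 66.3 FPKM in wild type, 42.7 and 45.9 in wox11, and 48.8 and 69.2 in the libraries labelled jmj705. Mean levels in wild type, wox11 and jmj705 were 39.7, 30.0 and 40.4 FPKM for OSH15 and 50.9, 34.0 and 51.1 for OSH71. The seed storage gene GluA1 and the amylase gene RAmy1A stayed at or below 0.736 FPKM. The root marker RCc3 was lower in wox11, at 61.8 and 23.9 FPKM against 146 and 89.7 in wild type, and stood at 102 and 131 in the libraries labelled jmj705. The secondary wall genes CESA4, CESA7 and CESA9 had means of 16.9, 13.8 and 9.04 FPKM in wild type. Their means were 22.2, 15.5 and 10.4 in wox11, and 19.5, 14.0 and 9.90 in jmj705. The part of the meristem, root and wall markers in the values below was not tested.

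The 8 loci lay on 4 chromosomes, 4 of them on chromosome 1, 2 on chromosome 2 and 1 each on chromosomes 3 and 5. Among the 14411 loci that could have met the rule, 14.2% lay on chromosome 1. No members were next to each other, and the closest pair were 2759 kb apart. None of the 8 stands on a written gene list, and the gene table used here (RefSeq, assembly ASM3414082v1) holds 0 entries under locus names of this kind. The loci are therefore given by their identifiers and by coordinates from the deposited tables, whose genome build the sources used here do not state, and no function is assigned to them. In wild type most stood in the lower part of the 14411, loci that had themselves to reach 5 FPKM. Their mean wild-type levels ran from 6.50 to 72.2 FPKM with a median of 10.6, and the median locus stood above 22.7% of the 14411. In wox11 the members stood at 2.18 to 38.4% of the wild-type mean (median 27.7%), and in the libraries labelled jmj705 at 18.1 to 41.0% (median 31.1%). Over the 14411 loci the median log2 ratio of mutant to wild-type mean was -0.040 for wox11 and -0.032 for jmj705, against -1.85 and -1.69 for the 8. In bulk tissue, fewer cells that make a transcript and less transcript per cell cannot be told apart.

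**Figure D1:**
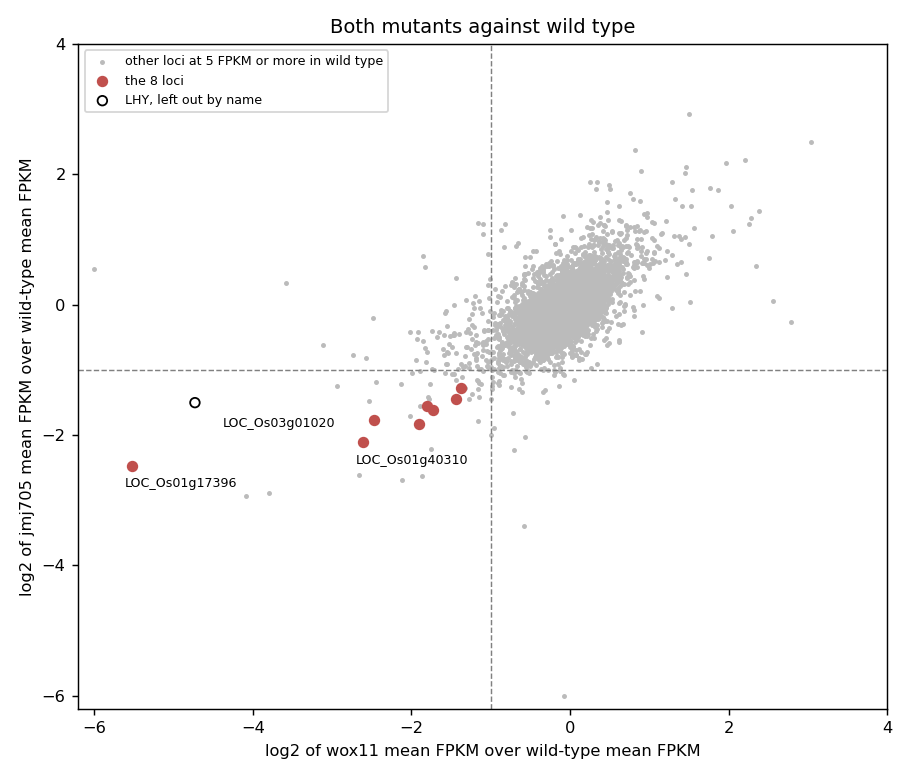
Each point is 1 of the 14411 loci at 5 FPKM or more in both wild-type libraries, placed by the log2 ratio of the wox11 mean (x axis) and of the jmj705 mean (y axis) to the wild-type mean, with dashed lines at a ratio of 0.5 and 1 locus per axis below -6 drawn at -6. The 8 loci lie in the lower left, with LOC_Os01g17396 at -5.52 on the wox11 axis and -2.47 on the jmj705 axis.

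LOC_Os01g17396 (chromosome 1, 10008035 to 10011595) had the deepest loss of the 8 in wox11. It stood at 6.74 and 6.27 FPKM in wild type, 0.135 and 0.149 in wox11, and 1.96 and 0.392 in the libraries labelled jmj705. In wox11 almost no transcript was left, at 2.18% of the wild-type mean (6.50 ± 0.329 against 0.142 ± 0.00966 FPKM, SD, n = 2). The libraries labelled jmj705 held more of it, at 18.1% of wild type, and their SD was about as large as their mean (1.17 ± 1.11 FPKM, n = 2). The deposited confidence bounds reached 0 in both wox11 libraries and in jmj705 replicate 2, so transcript there was not separable from none.

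LOC_Os03g01020 (chromosome 3, 26525 to 28075), close to the start of the chromosome's coordinates, was the most abundant of the 8 in wild type. It stood at 90.6 and 53.8 FPKM in wild type, 15.1 and 11.0 in wox11, and 22.5 and 20.0 in the libraries labelled jmj705. The 2 wild-type libraries were the farthest apart of any of the 8, replicate 1 being 1.68 times replicate 2. The rule set each mutant value against the lower of the 2. Both jmj705 values lay above both wox11 values. Its level was 18.1% of the wild-type mean in wox11 (72.2 ± 26.0 against 13.1 ± 2.91 FPKM, SD, n = 2) and 29.5% in jmj705 (21.3 ± 1.78 FPKM, n = 2).

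LOC_Os05g50260 (chromosome 5, 28801863 to 28806784) was the second most abundant. It stood at 31.0 and 22.1 FPKM in wild type, 7.88 and 6.30 in wox11, and 6.79 and 8.09 in the libraries labelled jmj705. The 4 mutant values overlapped and kept within a narrow band, at 26.7% of the wild-type mean in wox11 and 28.0% in jmj705. This locus and LOC_Os03g01020 were the only 2 of the 8 in which the upper bound of every mutant library lay below the lower bound of both wild-type libraries, which held for 3 of the 14411 loci (0.0208%). The rule drew on the same values, so nothing is read from that share.

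LOC_Os01g40310 (chromosome 1, 22754487 to 22755471) was the shortest, spanning 984 bp, and had the largest margin to the threshold. It stood at 10.9 and 9.83 FPKM in wild type, 2.29 and 1.12 in wox11, and 2.99 and 1.80 in the libraries labelled jmj705. Its highest mutant value was 30.4% of the smaller wild-type value. Means were 16.4% of wild type in wox11 and 23.1% in jmj705, and the values of the mutants overlapped. The deposited bounds of this short transcript were wide, from 4.06 to 17.8 FPKM in wild-type replicate 1. They reached 0 in both wox11 libraries and in jmj705 replicate 2, the same libraries as in LOC_Os01g17396. The highest mutant upper bound, 5.71 FPKM, lay above the lowest wild-type lower bound, 3.48 FPKM.

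LOC_Os01g12810 (chromosome 1, 7091905 to 7095355) gave the most even values in the mutants. It stood at 12.1 and 9.71 FPKM in wild type, 3.50 and 3.11 in wox11, and 3.54 and 3.59 in the libraries labelled jmj705. The jmj705 values lay just above both wox11 values, and the means were 30.3% of wild type in wox11 and 32.7% in jmj705. LOC_Os02g46980 (chromosome 2, 28681680 to 28683849) stood at 8.38 and 7.74 FPKM in wild type, 2.94 and 1.68 in wox11, and 3.43 and 2.03 in the libraries labelled jmj705. In both mutants its replicate 1 was the higher library, and the mutants overlapped at 28.7% and 33.9% of the wild-type mean.

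LOC_Os01g44970 and LOC_Os02g39710 were nearest inside the threshold, with LOC_Os02g46980 as the third nearest at 44.3%. LOC_Os01g44970 (chromosome 1, 25513805 to 25523268) stood at 9.44 and 9.56 FPKM in wild type, 3.66 and 3.64 in wox11, and 4.59 and 3.21 in the libraries labelled jmj705. Its highest mutant value was 48.6% of the smaller wild-type value. It is the 1 member that shares its coordinates with another named locus, LOC_Os01g44980, so that the span printed covers both and reads may be divided between them. LOC_Os02g39710 (chromosome 2, 23989749 to 23991293) stood at 20.4 and 16.8 FPKM in wild type, 7.52 and 6.26 in wox11, and 8.25 and 5.38 in the libraries labelled jmj705, with the highest mutant value at 49.2%. Just outside stood LOC_Os04g38600 at 50.4%, LOC_Os01g62810 at 50.7% and LOC_Os12g41060 at 50.8%. LOC_Os01g62810 had 7.15 and 7.21 FPKM in wild type and 3.63 in its highest mutant library, so a difference of a few hundredths of an FPKM set it apart from the members.

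**Figure D2:**
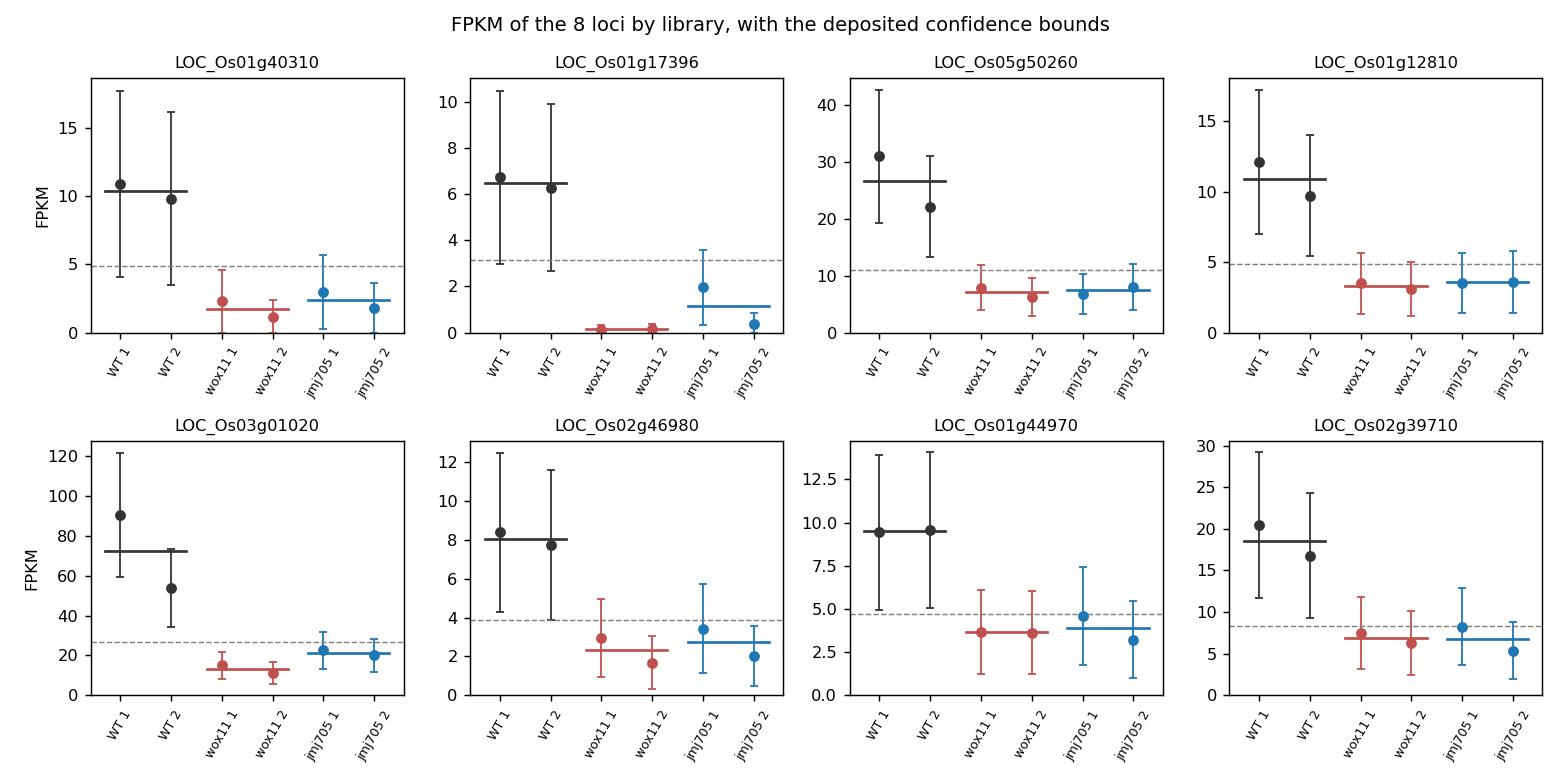
FPKM (y axis, from 0, a scale for each panel) of each of the 8 loci in the 6 libraries (x axis), with points for the libraries, error bars for the deposited confidence bounds, short lines for genotype means and a dashed line at 0.5 of the smaller wild-type value. All mutant points lie under the dashed line, and in LOC_Os01g17396 the wox11 points lie near 0.

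The count of loci depended on the libraries used, most of all on wild-type replicate 2. Wild-type replicate 1 lay above replicate 2 in 7 of the 8 loci, LOC_Os01g44970 being the exception, and in 39.3% of the 14411. Both mutant means lay below 0.5 of the wild-type mean in 44 loci, of which 9 met the rule. Of the 35 that did not, 31 were higher in wild-type replicate 1 than in replicate 2, 10 of them by more than 2 times, and 0 were higher in replicate 2 by that much. With the rule applied without wild-type replicate 2, 82 loci passed, and without wild-type replicate 1, 15 passed. Without jmj705 replicate 1, 23 passed. HSP101, a heat shock gene by its written locus name, stood at 11.9 FPKM in wild-type replicate 1, 1.91 in replicate 2 and between 0.871 and 1.44 in the mutant libraries. What set wild-type replicate 1 apart was not tested. The opposite rule, with all mutant values at 5 FPKM or more and both wild-type values below 0.5 of the smallest, was met by 27 of 13908 loci (0.194%).

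Replicate 1 was also the higher library in wox11 for 7 of the 8 loci, against 37.9% of the 14411, and in jmj705 for 6, against 46.6%. In LOC_Os01g40310, LOC_Os02g46980, LOC_Os02g39710 and LOC_Os03g01020 it was higher in all 3 genotypes, as in 13.4% of the 14411. The labels give no batch, and what the replicates 1 share was not tested.

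The rule did not compare the mutants with each other, but it capped every mutant value used in this comparison. Loci in which either mutant stayed near wild type were thereby removed, so differences of that kind could not appear among the 8. Within that limit, the difference between the mutants was tested with limma over 21480 loci on log2(FPKM + 1), a scale that understates the change of low genes. Of the 8 loci, 0 passed at an adjusted p of 0.05 in either direction, where 0.172% of tested loci were called higher in jmj705 and 0.112% lower. At an unadjusted p under 0.05, 2 of the 8 were higher in jmj705 and 0 lower. These were LOC_Os03g01020 (log2 difference 0.68, SE 0.25, 95% interval 0.087 to 1.27, adjusted p = 0.607) and LOC_Os01g17396 (0.83, SE 0.33, interval 0.059 to 1.60, adjusted p = 0.642). The share of all tested loci at the unadjusted limit was not counted, so nothing is read from the count of 2. With no FPKM filter on the loci tested, 0 of the 8 reached that limit. The difference of LOC_Os01g17396 moved with the library left out, to 0.29 without jmj705 replicate 1 and to 1.37 without jmj705 replicate 2. Mean levels were higher in jmj705 than in wox11 for 7 of the 8 loci and for 51.8% of the 14411. Both jmj705 values lay above both wox11 values in 3 of the 8, LOC_Os01g17396, LOC_Os03g01020 and LOC_Os01g12810, against 17.8% of the 14411. Both lay below in 0 of the 8, against 17.3%. Neither the 14411 nor all tested loci were under the cap set by the rule. Nothing is therefore read from the counts among the 8 against these shares. The intervals of the other 6 loci all included 0. The narrowest was that of LOC_Os01g12810, from -0.29 to 0.46, and the widest that of LOC_Os01g40310, from -0.27 to 0.95. With 2 libraries per genotype, differences between the mutants anywhere inside these intervals remain possible, and the intervals are before adjustment.

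**Figure D3:**
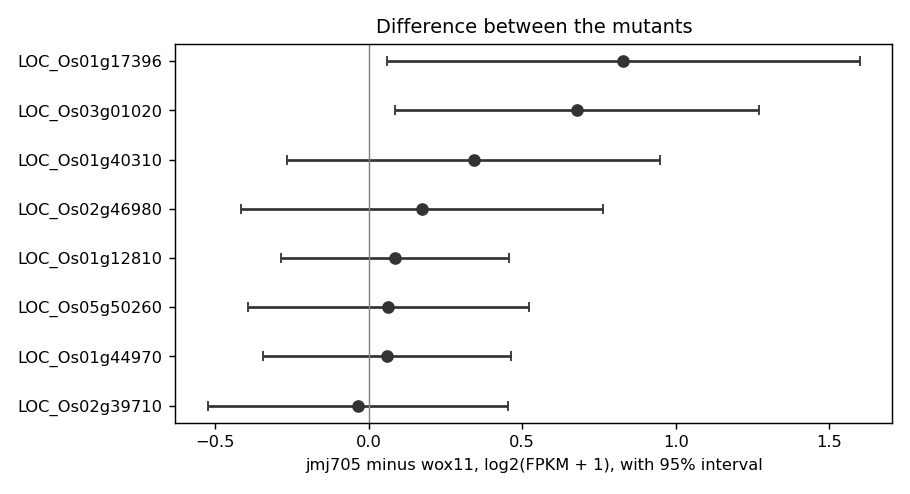
Difference between the jmj705 and wox11 means in log2(FPKM + 1) (x axis) for each of the 8 loci (y axis), with 95% intervals from limma's moderated test before adjustment. The intervals of LOC_Os01g17396 and LOC_Os03g01020 lie above 0 and those of the other 6 include it.

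The loci around the members were looked at next, since the rule did not use them. They were chosen once the positions of the members were known, as the nearest tested locus on each side and any tested locus sharing coordinates, which gave 17 loci. None of the 17 passed limma's test against wild type in either mutant, where 0.382% of tested loci were called lower and 0.456% higher in wox11, and 0.0791% lower and 0.321% higher in jmj705. At an unadjusted p under 0.05, 3 were lower and 0 higher in wox11, and 5 were lower and 1 higher in jmj705. The share of all tested loci at that unadjusted limit was not counted, so nothing is read from these counts. The median log2 change of the 17 was -0.14 in wox11 and -0.12 in jmj705, against -0.016 and -0.018 over all tested loci. All 4 mutant values lay below both wild-type values in 6 of the 17, against 11.5% of tested loci. They included loci farther from their member, LOC_Os03g01016 at 2.91 kb, LOC_Os01g12830 at 4.66 kb and LOC_Os01g40330 at 12.3 kb. LOC_Os01g12830 stood at 25.6 and 23.3 FPKM in wild type, 16.8 and 18.4 in wox11, and 18.6 and 19.8 in the libraries labelled jmj705.

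The lowest log2 change of the 17 in wox11 was that of LOC_Os01g17402, which starts 279 bp after LOC_Os01g17396. It stood at 3.90 and 4.71 FPKM in wild type, 2.00 and 2.83 in wox11, and 2.51 and 2.13 in the libraries labelled jmj705. Its mutant values lay below both wild-type values without passing the test (log2 change -0.64, SE 0.19, adjusted p = 0.259 in wox11, and -0.67, SE 0.19, adjusted p = 0.218 in jmj705). The locus on the other side, LOC_Os01g17390, ends 267 bp before the member and stood at 15.8 and 17.6 FPKM in wild type and 14.6 to 16.1 in the mutants. Of the 17, 6 lay within 1 kb of a member without sharing its coordinates, and in 3 of these all 4 mutant values lay below both wild-type values. The other two of the 3 were LOC_Os02g46970 and LOC_Os05g50250. LOC_Os02g46970, which ends 778 bp before LOC_Os02g46980, stood at 2.91 and 2.68 FPKM in wild type, 1.65 and 1.83 in wox11, and 1.63 and 1.22 in the libraries labelled jmj705. Its log2 change was -0.47 in wox11 (SE 0.17, adjusted p = 0.388) and -0.65 in jmj705 (SE 0.17, adjusted p = 0.200). LOC_Os05g50250, which ends 422 bp before LOC_Os05g50260, stood at 3.45 and 2.56 FPKM in wild type, 2.38 and 2.26 in wox11, and 2.07 and 1.55 in the libraries labelled jmj705. Its log2 change was -0.26 in wox11 (SE 0.19, adjusted p = 0.718) and -0.51 in jmj705 (SE 0.19, adjusted p = 0.348). In the remaining 3, LOC_Os01g17390, LOC_Os02g39720 (831 bp away) and LOC_Os01g44990 (915 bp away), mutant and wild-type values overlapped. LOC_Os01g44980, which shares the coordinates of LOC_Os01g44970, went the other way, with 2.39 and 2.17 FPKM in wild type, 2.20 and 3.12 in wox11 and 3.94 and 3.39 in the libraries labelled jmj705. Its log2 change in jmj705 was 0.51 (SE 0.18, adjusted p = 0.338). The strand of the loci is not in the tables, so reads crossing from one locus into the next could not be told from its own.

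**Figure D4:**
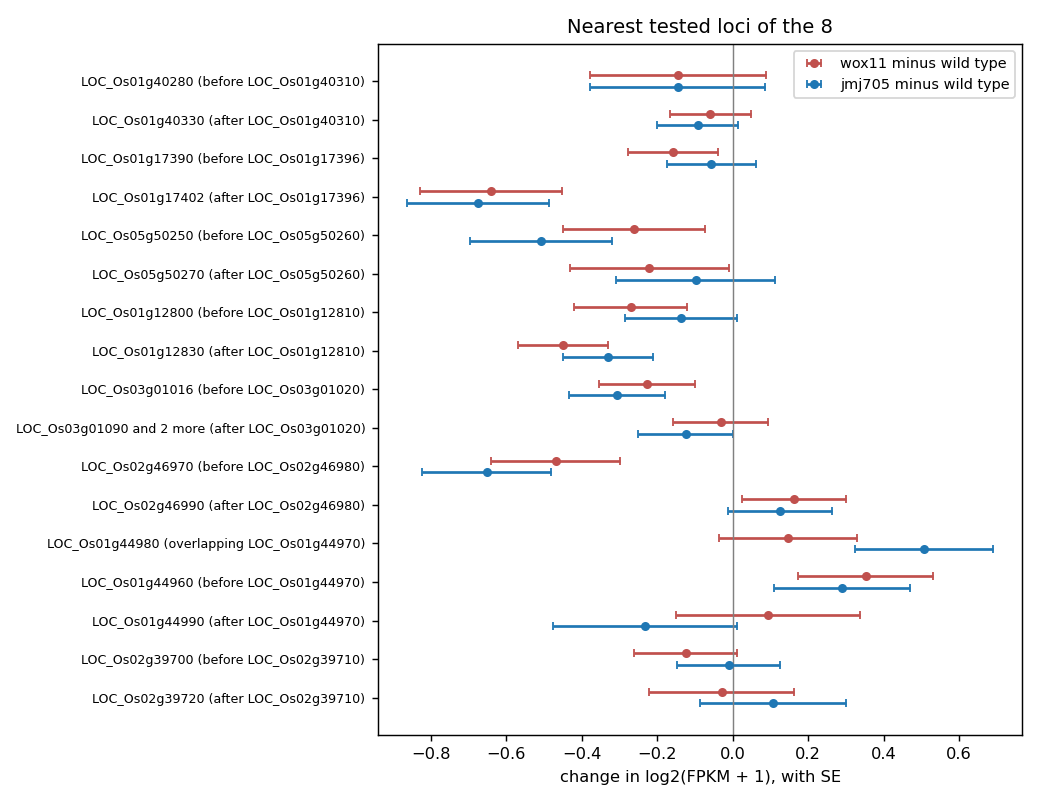
Change from wild type in log2(FPKM + 1) (x axis) of the 17 nearest tested loci (y axis, with the side and the member they flank), with SE bars, for wox11 and jmj705. LOC_Os01g17402 and LOC_Os02g46970 have the lowest values in both mutants, at -0.64 and -0.47 in wox11 and -0.67 and -0.65 in jmj705.

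JMJ705 binding was an independent measure. The authors' peak lists held 1551 peaks in the wild-type background and 1309 in the wox11 background, with each score and fold being the authors' value for that peak. The lists differed in depth and in error rate, with 5043282 and 7509947 tags and a median false discovery rate of 1.65% and 6.09%. In the wild-type background 1 of the 8 loci had a peak within 2 kb, against 4.29% of the 14411 loci. In the wox11 background 0 of the 8 had one, against 4.02%. With 8 loci, counts of 1 and 0 are near these shares, and with 1 library per background no difference between the backgrounds could be tested.

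The locus with a peak was LOC_Os01g17396, the one that lost most in wox11. The peak (chromosome 1, 10010806 to 10011643, 838 bp) overlapped the last 790 bp of the locus in coordinate order and ended 48 bp past it, before the start of LOC_Os01g17402. Its summit lay 284 bp inside the end of the locus. It was a low peak of its list, with 31 tags where the median peak had 37, a score above that of 10.8% of the peaks, and a fold enrichment of 4.48 where the median was 6.65. In the wox11 background the nearest peak lay 429 kb away. Of the other members, LOC_Os03g01020 was nearest to a peak in the wild-type background, at 8.90 kb, and LOC_Os02g39710 in the wox11 background, at 20.3 kb. The median distance of the 8 to the nearest peak was 50.6 kb in the wild-type background and 121 kb in the wox11 background, where that of the 14411 was 98.2 and 111 kb.

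**Figure D5:**
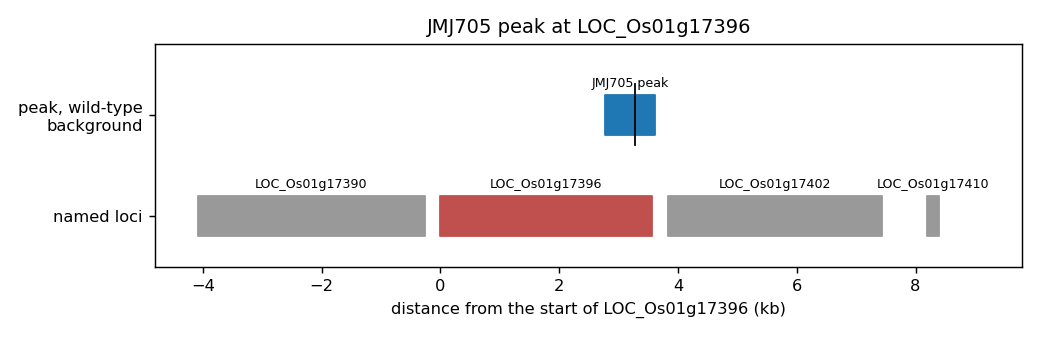
Named loci (lower row) and the JMJ705 peak called in the wild-type background (upper row, black line at its summit), by distance in kb from the start of LOC_Os01g17396 (x axis). The peak runs from 2.77 to 3.61 kb, across the end of LOC_Os01g17396 at 3.56 kb, and stops short of LOC_Os01g17402, which starts at 3.84 kb.

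No pathway could be set beside the 8 by name, so the written lists were placed on the same scale, the highest mutant value over the smaller wild-type value. Of the lists, only the clock list had a gene meeting the rule, LHY, which is left out here. The light harvesting list had a median of 0.618 over 12 genes, the photosystem list 0.697 over 13, the Calvin cycle list 0.875 over 10 and the chlorophyll synthesis list 0.916 over 13, where the median of the 14411 was 1.17 and the 8 ran from 0.304 to 0.492. The clock list lay the other way, with a median of 1.64 over 9 genes. Just above the threshold, between 0.5 and 0.6, stood 21 loci, and 7 of them were on the light harvesting, photosystem or Calvin cycle lists. Those lists held 12, 13 and 10 of the 14411 loci. Among the 7 was LOC_Os04g38600, GAPA by its written locus name, which was also to be left out. These lists were written from memory by locus name, and the gene table supports the symbol of 1 photosystem gene and of 0 light harvesting and Calvin cycle genes. They were chosen with earlier results of these data known, so nothing is read from the count of 7.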

How the data were processed

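RNA from 6 libraries and 2 ChIP-seq libraries were used. For the RNA the submitters' processing notes name Trimmomatic, TopHat and Cufflinks, without versions. The deposited tables give FPKM per locus with lower and upper confidence bounds, per the file headers. Per the file headers, MACS 1.4.2 called peaks in each library against a control, with a p-value limit of 1e-05, after Trimmomatic 0.32, Bowtie2 2.1.0 and SAMtools 0.1.17, per the submitters' processing notes. The deposited peak lists give a tag count, a score from the p-value, a ratio (fold enrichment) and, in percent, a false discovery rate. The input DNA sample was not analysed here.

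Loci at 1 FPKM or more in at least 2 libraries (21480) were tested with limma 3.58.1 in R 4.3.3 on log2(FPKM + 1), with 1 mean per genotype, 3 residual and 4.25 prior degrees of freedom, a mean-variance trend and Benjamini-Hochberg adjustment at 0.05. Which seedlings made up a library is not stated, so p-values rest on the spread between libraries. The members and lists were chosen with earlier results of these data known. Named were WOX11, JMJ705, every member, the nearest loci outside the threshold and, chosen after their values were seen, flanking loci, RCc3 and HSP101. Promoter motifs were not analysed here. Alternatives were other pseudocounts, filters, scalings, fits and peak limits, and leaving out each library.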

Additional observations from a re-analysis of the deposited data

How the results depend on the processing

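The number of loci meeting the rule was 3 with a wild-type floor of 10 FPKM and 2 with mutant values below 1/3 in place of 0.5. Leaving out 1 library at a time gave 9 to 82 loci, with 82 without wild-type replicate 2, 23 without jmj705 replicate 1 and 15 without wild-type replicate 1; the 8 loci pass each of these by construction. It was 12 with a floor of 2 FPKM, 7 with median-ratio scaling, which lost LOC_Os02g39710, 8 with quantile normalization, and 7 without loci that share coordinates. Between the mutants, 0 members passed under any of 15 other settings (lowest adjusted p = 0.169), replicate block included (0 members higher and 0 lower). Of the flanking loci 0 passed against wild type in the settings that tested them (lowest adjusted p = 0.147); with a filter of 5 FPKM only 12 of the 17 were tested, leaving out 5 that include LOC_Os01g17402, LOC_Os02g46970 and LOC_Os05g50250. Equal replicate numbers share no stated origin. Their replicate differences correlated at 0.292, 0.118 and 0.114 across loci between genotypes. Over all loci, 37 were called higher and 24 lower in jmj705 than in wox11, and 8 to 13 higher and 1 to 12 lower without 1 library of these genotypes. Against wild type, the loci called lower numbered 82 in wox11 (3 without wox11 replicate 2, 134 with the replicate block) and 17 in jmj705 (1 when either wild-type replicate 1 or jmj705 replicate 2 was left out, 29 with the block), and 8 in each with no FPKM filter. Those called higher numbered 98 and 69, and 18 without either wox11 library and 10 without jmj705 replicate 2. The sign between the mutants held for 4 of the 8 members under all settings. The log2 difference of LOC_Os01g17396 ran from 0.25 (pseudocount of 5 FPKM) to 2.06 (pseudocount of 0.1 FPKM), and the locus was not tested in the fit of 2 genotypes, where it missed the filter. Members with a peak stayed at 1 and 0 with overlap or 5 kb. A false discovery rate of at most 5% kept the 1 in the wild-type background, and the wox11 list holds 0 such peaks, so that setting gave no value there. Depth is unknown, so errors near 0 rest on the deposited bounds.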

Other observations

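LHY, left out of the 8 by name, also overlapped a JMJ705 peak of the wild-type background, by 1035 bp at the start of its span in coordinate order. The peak had a low fold enrichment, 4.18 where the median was 6.65. It held 39 tags where the median peak had 37, and its score was above that of 34.8% of the peaks. Of the 14411 loci, 3.14% overlapped a peak of that background. The nearest peak to LHY in the wox11 background lay 173 kb away. LHY stood at 3.77% of the wild-type mean in wox11 and LOC_Os01g17396 at 2.18%, which are the lowest shares among the 9 loci that met the rule. The rule used these same FPKM values. Both loci were picked out for this after their values were seen, no test was made of it, and nothing is read from it.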
